A study of Mus musculus with 6 samples.

Results

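TRBV14 is a mouse T-cell receptor β-chain variable (V) gene, known in the older nomenclature as Vβ13. The rearrangements described here are the rows of 6 receptor libraries that were assigned to TRBV14 and whose CDR3 carried no stop or frame mark. They formed 4790 distinct clonotypes of 187625 over all V genes, a clonotype being 1 combination of V gene, joining (J) gene and CDR3 amino acid sequence. Members per library numbered 420 and 400 clonotypes in treated tumors 1 and 2, 322 and 266 in distant tumors 1 and 2, and 1537 and 2054 in spleens 1 and 2. The reads behind them numbered 2199, 1745, 1780, 760, 2184 and 2869 in the same order.

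Each T cell joins a V, a diversity (D) and a J segment of the β locus, trimming their ends and adding untemplated nucleotides, and the join encodes CDR3, the loop that meets the middle of the presented peptide. The start of CDR3 therefore comes from the V gene, its end from the J gene, and its middle from D and added nucleotides. TRBV14 is the β-chain V gene of pmel-1, a receptor known to recognise gp100, a melanocyte protein that B16 melanoma cells also make. A V gene alone does not fix what a receptor recognises. No antigen was tested in these libraries, and no file used here holds the sequence of a gp100-specific receptor.

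The study asked how T cells differed between a treated tumor, an untreated tumor at another site and the spleen. C57BL/6 mice received MO4 melanoma, an ovalbumin-expressing derivative of B16F10, under the skin of each hindlimb on day 0 (100000 cells per site). The right side was then injected around the tumor with 1000000 IFN-α-iPSC-pMC, the label of the injected cells, on 3 days from day 5 to day 7 and again on days 12 and 13, and tumor RNA was taken on day 14. The 2 right tumors are the treated group, the 2 left tumors the distant group, and 2 spleens the third group. All 3 groups came from treated animals, so no library shows an untreated mouse. The labels name no receptor transgene and no transferred T cells. The series names 2 mice, and the titles number the libraries 1 and 2 in every tissue without stating that a number is a mouse. Productive reads ranged from 42320 to 135599 per library. No molecular identifiers are named, so a read is not a molecule and all intervals below cover counting error only. In whole tissue, fewer T cells and less receptor RNA per cell cannot be told apart.

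The germline ends of the gene segments set the frame in which the clonotypes are read. TRBV14 (ENSMUSG00000076471) lies on the plus strand at chr6:41135145-41135616 of GRCm38, with exon 1 at chr6:41135145-41135215 and exon 2 at chr6:41135320-41135616. The sequences below run 5′ to 3′ on the plus strand, from the GENCODE M21 transcripts. They show the end of TRBV14, from the codon of the conserved cysteine that opens CDR3 at chr6:41135601-41135616, and the start of the 3 J segments that carried its leading clones, TRBJ1-6 (chr6:41535554-41535578), TRBJ2-5 (chr6:41543453-41543473) and TRBJ1-4 (chr6:41534811-41534833). Capitals mark the codon of CDR3 position 5 in TRBV14 and, in the J segments, the codon of the phenylalanine that ends CDR3.
TRBV14: tgtgccagcagtTTCt
TRBJ1-6: ttcctataattcgcccctctacTTT
TRBJ2-5: aaccaagacacccagtacTTT
TRBJ1-4: tttccaacgaaagattatttTTC
An untrimmed TRBV14 thus supplies 5 residues of CDR3, the fifth a phenylalanine, and TRBJ1-6 supplies 8 residues at the other end.

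The clonotypes on which the results turn are written as amino acids from the cysteine to the phenylalanine. They are shown because they led their libraries or were found in several tissues. Clonotypes of 15 residues are named by their genes and rank.
TRBJ2-5, leading in treated tumor 1 and distant tumor 1: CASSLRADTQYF
TRBJ1-4, leading in spleen 2: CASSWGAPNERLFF
TRBJ1-3, leading in distant tumor 2: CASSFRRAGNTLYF
TRBJ2-4, in both tumors numbered 1: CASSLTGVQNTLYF
TRBJ2-4, in all 3 tissues numbered 2: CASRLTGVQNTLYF

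TRBV14 held a small part of the repertoire. It took 2.64% of productive reads in treated tumor 1 (95% Wilson interval 2.54 to 2.76) and 3.11% in treated tumor 2 (2.97 to 3.26). In distant tumors 1 and 2 it took 2.17% (2.07 to 2.27) and 1.80% (1.67 to 1.93). In spleens 1 and 2 it took 2.25% (2.16 to 2.35) and 2.12% (2.04 to 2.19). Both treated tumors were thus above all 4 other libraries, while distant tumor 1 lay between the spleens and distant tumor 2 below both. Among 23 V genes its rank by reads ran from 14 to 19.

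The difference between treated and distant tumors did not pass the test. The group means were 2.88% ± 0.33 and 1.98% ± 0.26 of reads (SD, n = 2 each), against 2.18% ± 0.10 in spleens. The fitted log2 fold change of treated against distant tumors was 0.54 (SE 0.28, adjusted p = 0.313, edgeR's quasi-likelihood test, Benjamini-Hochberg over the V genes). It was 0.40 (SE 0.28, adjusted p = 0.524) for treated tumors against spleens and -0.14 (SE 0.28, adjusted p = 0.740) for distant tumors against spleens. All 4 tumors against the spleens gave 0.13 (SE 0.24, adjusted p = 0.954). The same test called 0 of 23 V genes (0%) in each of these comparisons, with 3, 3, 4 and 4 genes at an unadjusted p under 0.05. DESeq2 called 2, 3, 0 and 2 V genes (8.7%, 13%, 0% and 8.7%), none of them TRBV14. Scaled by library totals, the median V gene stood 0.35 higher in treated than in distant tumors on the log2 scale, which leaves TRBV14 0.19 above it. The distant-against-spleen difference turned positive under TMM factors (0.02) and DESeq2 (0.26).

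Counting each clonotype once gave a wider spread in the treated tumors. TRBV14 then made up 3.29% and 5.31% of clonotypes in treated tumors 1 and 2, 2.87% and 2.57% in the distant tumors, and 2.37% and 2.23% in the spleens. The high value of treated tumor 2 moved with a set of near-identical sequences around the leading TRBV14/TRBJ1-6 clonotype, described below. Without that set the shares were 3.28% and 3.30% in treated tumors, 2.26% and 2.25% in distant tumors, and 2.21% and 2.20% in spleens. Without every TRBV14 clonotype joined to TRBJ1-6 they were 3.25% and 2.63%, 2.09% and 2.17%, and 2.14% and 2.11%. In each of these counts both treated tumors stood above the other 4 libraries.

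Whether that order passes a test depended on the count. With clonotypes counted once and the set left out, treated tumors were higher than distant tumors (log2 fold change 0.55, SE 0.08, adjusted p = 0.0262, edgeR), where 9.52% of V genes were called. The call was lost with TMM factors (adjusted p = 0.157), with DESeq2 (0.285), with the replicate number as a block (0.0697) and without any 1 of the 6 libraries (0.0557 to 0.124). It was also lost with all TRBV14/TRBJ1-6 clonotypes left out (log2 fold change 0.47, SE 0.24, adjusted p = 0.403), and with the set kept (0.65, adjusted p = 0.208), where 4.76% of V genes were called. Against spleens, treated tumors were higher in the same count (0.58, adjusted p = 0.0198, 9.52% of V genes called). That call was lost as well with TMM factors (adjusted p = 0.0627), with DESeq2 (0.0560), with the block (0.0532), without treated tumor 1 (0.103), spleen 1 (0.171) or spleen 2 (0.145), and with all TRBV14/TRBJ1-6 clonotypes left out (log2 fold change 0.47, adjusted p = 0.182). Treated tumors were also higher than spleens with clonotypes of 2 or more reads counted once (1.15, adjusted p = 0.000317, 23.8% called; 0.93, adjusted p = 0.00265, 19% called without the set). Treated against distant tumors did not pass in the last 2 counts (0.49 and 0.35, adjusted p = 0.412 and 0.476). Those 2 counts were not run with TMM factors, DESeq2, the block, a library left out or all TRBV14/TRBJ1-6 clonotypes left out. These counts were chosen after the data had been seen, apart from the plain count of each clonotype once.

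**Figure D1:**
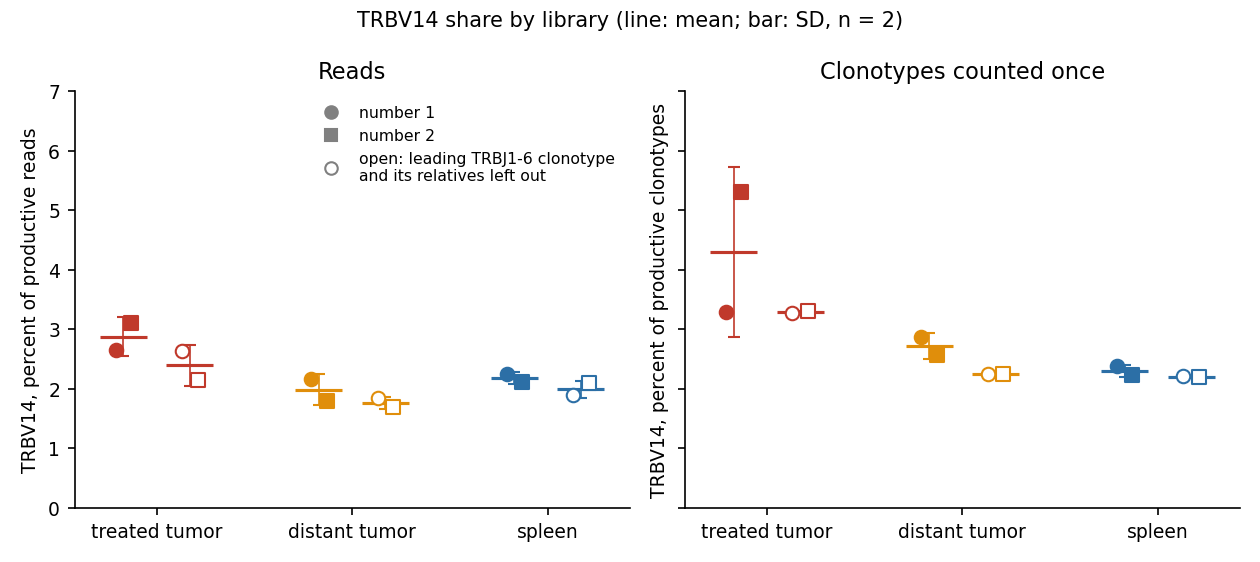
TRBV14 as a percentage of productive reads (left) and of productive clonotypes (right) in each library, by tissue; circles are number 1, squares number 2, lines the mean and bars the SD of 2 libraries. Open symbols leave out the leading TRBJ1-6 clonotype and its relatives, which lowers the clonotype share of treated tumor 2 from 5.31% to 3.30% and leaves both treated tumors above the other 4 libraries.

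TRBV2, the V gene whose share varied most like that of TRBV14, also stood highest in the treated tumors. Its read share was 3.60% and 3.70% in treated tumors, 1.89% and 1.93% in distant tumors, and 2.46% and 2.74% in spleens. The Pearson correlation of the log2 read shares over the 6 libraries was 0.865 for TRBV2, 0.614 for TRBV24 and 0.467 for TRBV26. TRBV24 is annotated as a pseudogene and held at most 0.109% of reads in any library. These values describe 6 libraries whose shares sum to a fixed total.

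A TRBV14/TRBJ1-6 clonotype of 15 residues dominated TRBV14 in 2 libraries, was second in distant tumor 1, and was the only TRBV14 clonotype found in all 6. It keeps all 5 germline residues of TRBV14 and the last 7 of TRBJ1-6, with 3 residues between them that match neither. Whether it is the β chain of pmel-1, which uses the same V gene, was not tested, so neither its origin nor its antigen is known from these files. It had 356 reads in treated tumor 2 (20.4% of TRBV14 reads), 192 in distant tumor 1 (10.8%) and 236 in spleen 1 (10.8%), where it was the most abundant clonotype of any V gene. In the other libraries it had 3 reads in treated tumor 1, 14 in distant tumor 2 and 11 in spleen 2. The high libraries thus crossed the title numbers, with 1 high and 1 low library in every tissue. As shares of all productive reads the high values were 0.635%, 0.234% and 0.244%, and the low ones 0.00361%, 0.0331% and 0.00811%.

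The treated and distant tumors differed in opposite directions in the 2 numbers. In number 1 the clonotype was 64.8-fold higher in the distant tumor (exact interval 21.8 to 317, from 192 against 3 reads). In number 2 it was 19.2-fold higher in the treated tumor (11.3 to 35.5, from 356 against 14 reads). The adjusted p-values were 3.24e-52 and 2.42e-66 (two-sided Fisher's exact test, adjusted by Benjamini-Hochberg over every clonotype tested), which compare single libraries and not the treatment. Over all V genes, 19 clonotypes of 15 V genes were found in all 6 libraries, and this one ranked 3 among them by mean share.

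A set of relatives surrounded it. Relatives are taken here as TRBV14/TRBJ1-6 clonotypes of the same length that differ at up to 4 residues, a definition made after the data had been seen. With the clonotype itself they numbered 156 clonotypes and 550 reads in treated tumor 2, 71 and 276 in distant tumor 1, 107 and 356 in spleen 1, 34 and 47 in distant tumor 2, 26 and 37 in spleen 2, and 2 and 4 in treated tumor 1. They made up 39.0% of all TRBV14 clonotypes in treated tumor 2, 22.0% in distant tumor 1 and 6.96% in spleen 1. Most were single reads, 138 of 155 in treated tumor 2, 60 of 70 in distant tumor 1 and 98 of 106 in spleen 1.

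The relatives differed along the whole sequence, including the parts that the germline encodes. Of the 39 clonotypes of treated tumor 2 that differed at 1 residue, 8 differed at positions 1 to 4, 12 at positions 5 to 8 and 19 at positions 9 to 15, counted from the cysteine. Some were found more than once. The most abundant of them, alike in all but 1 residue, had 6, 4, 1 and 7 reads in treated tumor 2, distant tumor 1, distant tumor 2 and spleen 1. Another had 6, 2 and 1 in treated tumor 2, distant tumor 1 and spleen 1. Per 100 reads of the clonotype there were 11.0 such neighbours in treated tumor 2, 10.9 in distant tumor 1 and 11.9 in spleen 1. The value was not constant where the clonotype had few reads. It was 64.3 in distant tumor 2 (9 neighbours, 14 reads), 18.2 in spleen 2 (2 neighbours, 11 reads) and 0 in treated tumor 1 (3 reads). Over the 183 clonotypes of any V gene with at least 150 reads in a library, the median was 5.03 and the highest 11.2. The other leading TRBV14 clonotypes were nearer to that median, with 4.65 and 2.99 for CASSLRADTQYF in treated and distant tumor 1 and 4.62 for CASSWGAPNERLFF in spleen 2. At 1 to 4 differences the clonotype had 43.5, 36.5 and 44.9 relatives per 100 reads in treated tumor 2, distant tumor 1 and spleen 1. The median of the 183 was then 12.7 and the highest 144, and the only one in spleen 1 had 65.9. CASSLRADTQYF had 45 such relatives in distant tumor 1 and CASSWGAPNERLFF 50 in spleen 2. These were kept wherever the set was left out. The part of amplification or sequencing error in these numbers was not tested. In spleen 2 the relatives became more numerous with distance, from 2 at 1 difference to 12 at 4, so the definition also takes in other clonotypes that share the V and J ends.

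**Figure D2:**
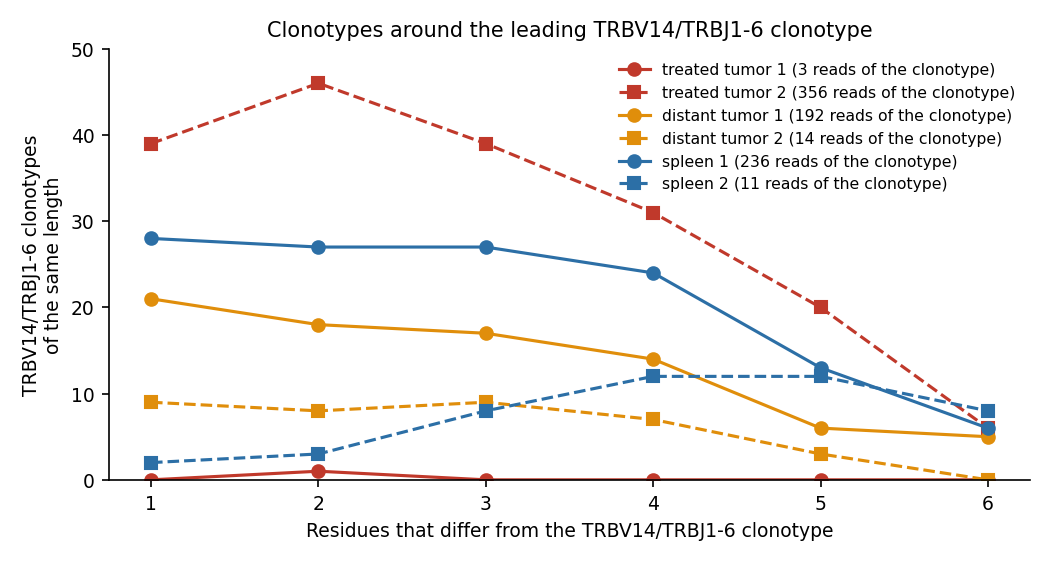
Number of TRBV14/TRBJ1-6 clonotypes of the same length (vertical axis) by the number of residues at which they differ from the leading clonotype (horizontal axis), 1 line per library. Treated tumor 2, spleen 1 and distant tumor 1 have 39, 28 and 21 at 1 difference, and the other libraries have at most 9.

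The remaining leading clones stayed within 1 title number. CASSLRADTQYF (TRBV14/TRBJ2-5) had 602 reads in distant tumor 1, 172 in treated tumor 1 and 14 in spleen 1, and none in any library numbered 2. It made up 33.8% of TRBV14 reads in distant tumor 1 and 7.82% in treated tumor 1, and ranked 11 among all clonotypes of distant tumor 1. Its share was 3.54-fold higher in the distant than in the treated tumor (adjusted p = 1.35e-56, Fisher's exact test of these 2 libraries). Only 3 of its 12 residues matched neither germline end. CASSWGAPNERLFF (TRBV14/TRBJ1-4) had 195 reads in spleen 2, 91 in treated tumor 2 and 45 in distant tumor 2, and none in the libraries numbered 1. It was the second most abundant clonotype of spleen 2 over all V genes. Its share was 0.162%, 0.106% and 0.144% of reads in treated tumor 2, distant tumor 2 and spleen 2, so the 3 tissues were within 1.53-fold of each other.

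Other clones were strongest in 1 tumor. The second clonotype of treated tumor 1, 15 residues joined to TRBJ2-5, had 122 reads there and none elsewhere, at least 40.2-fold higher than in distant tumor 1 against a floor of 3 reads in that library. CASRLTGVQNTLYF (TRBJ2-4) had 82 reads in treated tumor 2, 9 in distant tumor 2 and 4 in spleen 2. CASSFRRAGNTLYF (TRBJ1-3) had 47 reads in distant tumor 2 and 19 in spleen 2, and none in treated tumor 2. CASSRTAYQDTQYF (TRBJ2-5) had 45 reads in distant tumor 2, 19 in treated tumor 2 and 9 in spleen 2, and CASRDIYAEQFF (TRBJ2-1) had 54 in distant tumor 1 and 16 in treated tumor 1. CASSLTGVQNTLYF (TRBJ2-4), with 43 reads in treated tumor 1 and 35 in distant tumor 1, did not pass the test between them (adjusted p = 0.435, Fisher's exact test). Where a clonotype had no read, a share up to the floor of 3 reads could have gone unseen. That floor was 0.00221% in spleen 2, the deepest library, and 0.00709% in distant tumor 2, the shallowest.

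Clonotypes with at least 10 reads in the treated and distant tumor of a number were mostly unequal between them. In number 1, 78 TRBV14 clonotypes were tested: 47 (60.3%) had the higher share on the treated side and 26 (33.3%) on the distant side. Over all V genes the shares were 54.2% and 41.6%. In number 2, 25 of 38 (65.8%) were higher on the treated side and 11 (28.9%) on the distant side, against 48.2% and 45.7% over all V genes. Only 11 of the 78 and 9 of the 38 were found in both tumors, so most of these calls come from clonotypes of a single tumor. Such a clonotype reached the minimum through that tumor alone. In number 1, 10 reads against 0 already had an adjusted p of 0.00209 (Fisher's exact test). There the minimum fixed these calls in advance, and they do not measure how unequal the tumors were. With clonotypes of at least 5 reads in number 2 the counts were 27 and 29 of 62 (43.5% and 46.8%), against 30.9% and 61.6% over all V genes. With at least 50 reads, 64% and 29.1% of the clonotypes of all V genes were called in number 1 and 69.8% and 22.9% in number 2, beside 8 and 3 of 12 and 7 and 1 of 8 for TRBV14.

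Sharing followed the title number once the TRBJ1-6 set was left out. Treated and distant tumor 1 then shared 12 TRBV14 clonotypes, and treated and distant tumor 2 shared 8. Tumors of different numbers shared 0 or 1. Other V genes showed the same order, with 592 and 408 shared clonotypes within a number and 109 to 187 across the numbers. The shared clonotypes held 17.9% of these TRBV14 reads in treated tumor 1, 52.3% in distant tumor 1, 29.4% in treated tumor 2 and 20.2% in distant tumor 2. Of 21 TRBV14 clonotypes found in tumors of both numbers, 19 belonged to the set. The 2 outside it include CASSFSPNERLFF (TRBJ1-4), with 14 reads in treated tumor 1, 30 in distant tumor 1 and 1 in treated tumor 2.

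Similar sequences occurred across the numbers, about as often as in other V genes. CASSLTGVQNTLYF of number 1 and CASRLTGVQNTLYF of number 2 are joined to the same J gene and differ by S4R, counted from the cysteine of the first. Another pairing, TRBJ2-4 as well, is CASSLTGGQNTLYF, with 21 reads in the tumors numbered 1, and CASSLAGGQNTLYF, with 12 in those numbered 2, which differ by T6A. Of 77 TRBV14 clonotypes outside the set with at least 10 tumor reads in number 1, 6 (7.79%) had such a neighbour in number 2, against 6.65% for other V genes. In the other direction the shares were 4 of 37 (10.8%) and 12.0%. This comparison was chosen after the data had been seen.

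The spleens shared short-insert clonotypes. Both spleens held 63 TRBV14 clonotypes, 61 of them outside the set. The 63 made up 4.10% of the TRBV14 clonotypes of spleen 1 and 3.07% of those of spleen 2. For other V genes the shares were 9.73% and 6.82%. Between the unbroken matches to the germline ends, the 61 had 3.05 ± 1.37 residues (SD over clonotypes), against 4.53 ± 2.18 in the 3336 found in 1 spleen. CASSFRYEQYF (TRBJ2-7), with 3 reads in each spleen and 21 in treated tumor 1, has 1 such residue.

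Fewer residues of the tumor clonotypes lay in an unbroken match to a germline end. The mean number that matched neither end was 5.71 and 7.07 in treated tumors 1 and 2, 6.25 and 5.65 in distant tumors 1 and 2, and 4.57 and 4.58 in spleens 1 and 2. Every tumor was above both spleens. With the set left out the values were 5.72, 6.80, 6.02, 5.44, 4.36 and 4.56 in the same order, and the groups again did not overlap. The first 4 germline residues, CASS, were kept in 61.0% and 58.5% of clonotypes in treated tumors, 52.8% and 68.4% in distant tumors, and 78.3% in each spleen. These values count every residue between the unbroken matches from the germline ends, so 1 changed residue can add several. The leading TRBV14/TRBJ1-6 clonotype counted 3, and a relative that differs from it at 1 residue counted 6. The same count was not made for other V genes, and the part of sequencing error was not tested.

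TRBV14 reads were carried by few clonotypes in tumors and by many in spleens. At an equal 760 TRBV14 reads per library, the 10 most abundant clonotypes held 39.8% and 53.3% of reads in treated tumors, 59.8% and 35.0% in distant tumors, and 14.6% and 10.8% in spleens. The number of distinct clonotypes was 198 and 200 in treated tumors, 176 and 266 in distant tumors, and 617 and 647 in spleens. Tumors and spleens did not overlap in either measure, with p = 0.0667 each (exact permutation test, two-sided, 4 against 2), which is the smallest that this design allows. Treated and distant tumors overlapped in both.

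Within the tumors this concentration was ordinary for a V gene, and within the spleens it was high. By the share of its 10 leading clonotypes TRBV14 ranked 15 and 14 among 19 V genes in the treated tumors, 5 of 18 in distant tumor 1 and 14 of 19 in distant tumor 2. It ranked 1 and 2 of 19 in spleens 1 and 2, where the other V genes had medians of 5.31% and 3.87%. Without the TRBJ1-6 clonotype and its relatives the share in spleen 1 fell to 4.54%, at 713 reads, while that in spleen 2 was 10.9%. The leading clonotype of spleen 2, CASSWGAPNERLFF, made up 6.80% of its TRBV14 reads.

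**Figure D3:**
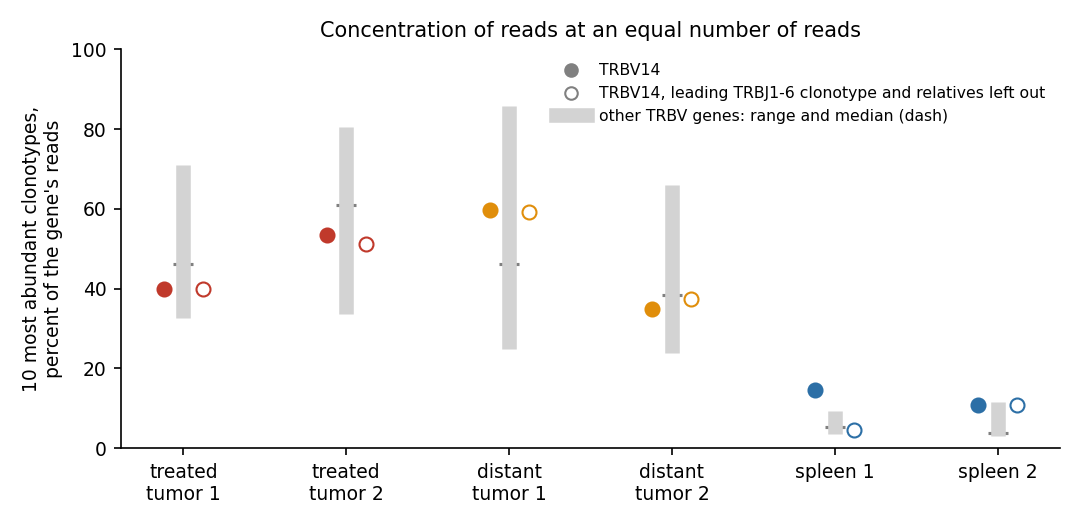
Percentage of TRBV14 reads held by its 10 most abundant clonotypes in each library at an equal number of reads (filled circles), without the leading TRBJ1-6 clonotype and its relatives (open circles), beside the range (gray bar) and median (dash) of the other V genes. All 4 tumors lie between 35.0% and 59.8%, inside the range of the other V genes, and spleen 1 at 14.6% lies above that range.

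TRBV14 was joined to all 12 J genes, with TRBJ1-6 standing out through the set described above. TRBJ1-6 was the partner of 51.8% of TRBV14 clonotypes in treated tumor 2, 28.0% in distant tumor 1, 15.8% in distant tumor 2, 10.2% in spleen 1, 5.31% in spleen 2 and 1.19% in treated tumor 1. Its mean was 18.7% ± 18.7 against 4.32% ± 1.53 in the other V genes (SD, n = 6). With the set left out, treated tumor 2 still held 20.9% and the other libraries between 0.718% and 7.57%. In that library 26 further TRBV14/TRBJ1-6 clonotypes of the same length differed from the leading one at 5 or 6 residues.

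The partners TRBJ1-1, TRBJ1-2 and TRBJ2-3 were less frequent beside TRBV14 than beside other V genes in all 6 libraries. TRBJ1-1 made up 5.98% ± 2.12 of TRBV14 clonotypes against 9.27% ± 1.46, TRBJ1-2 2.46% ± 1.23 against 6.45% ± 2.46, and TRBJ2-3 5.61% ± 1.94 against 10.1% ± 1.08 (SD, n = 6). Each reached p = 0.03125, the smallest that an exact two-sided sign-flip permutation over 6 libraries allows. The adjusted p over the 12 J genes was 0.125, so 0 of 12 partners passed. From that smallest p no partner can pass on its own, whatever the size of its difference. With the set left out TRBJ1-1 and TRBJ2-3 were again lower in 6 of 6 libraries and TRBJ1-2 in 5. With clonotypes of 1 read left out TRBJ1-2 was lower in 6, TRBJ1-1 in 5 and TRBJ2-3 in 4. By reads TRBJ2-3 was lower in 6, and TRBJ1-1 and TRBJ1-2 in 5 each. The libraries come from 2 mice and are not independent. TRBJ2-7 and TRBJ2-5 were the most frequent partners in the spleens, with 21.1% and 22.2%, and 16.1% and 15.8%, of clonotypes.

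No TRBV14 pairing changed between tissues in the count test. Of 243 V-J pairs tested by edgeR, 0 (0%) were called in each comparison, with 18, 22 and 25 pairs at an unadjusted p under 0.05 for treated against distant tumors, treated tumors against spleens and distant tumors against spleens. The TRBV14 pairs with the smallest p between treated and distant tumors were TRBJ2-7 (log2 fold change 1.67, SE 0.56, adjusted p = 0.494) and TRBJ1-2 (3.19, SE 1.18, adjusted p = 0.494). TRBV14/TRBJ1-2 reads numbered 123 and 83 in the treated libraries and 4 and 12 in the distant ones. DESeq2 called that pair (log2 fold change 3.07, adjusted p = 0.0319), among 2.47% of pairs called. Of its 123 reads in treated tumor 1, 111 belonged to 1 clonotype of 15 residues. DESeq2 called 1.23% of pairs between treated tumors and spleens, 0.412% between distant tumors and spleens, and 1.65% between all tumors and spleens, none of them with TRBV14.

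**Figure D4:**
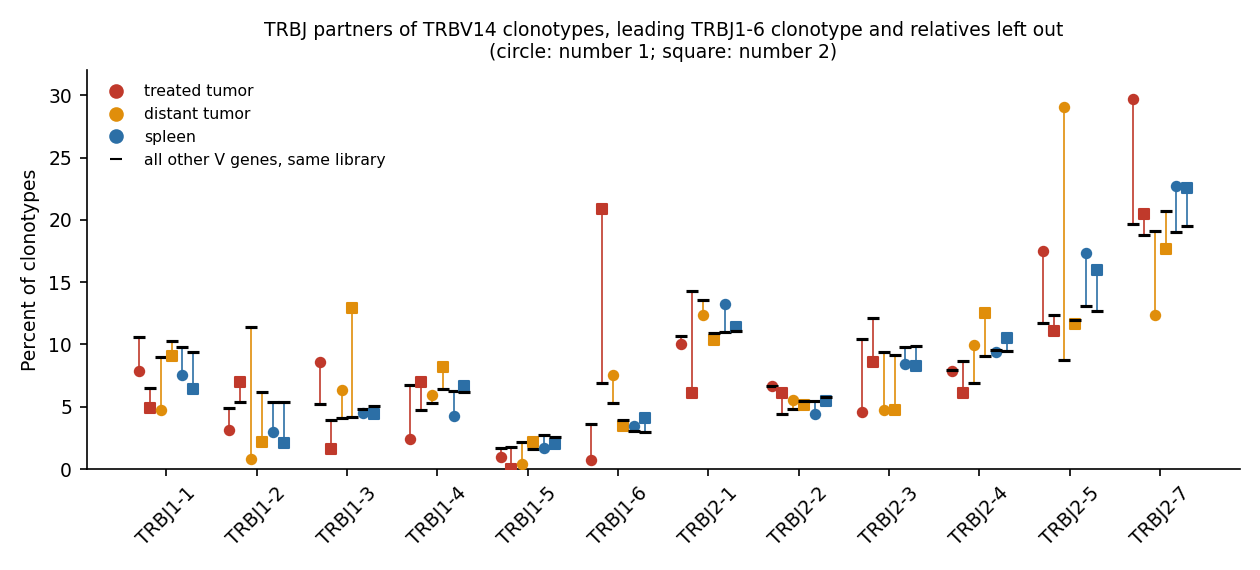
Percentage of TRBV14 clonotypes joined to each J gene in each library (circles number 1, squares number 2, colored by tissue), with the leading TRBJ1-6 clonotype and its relatives left out; black dashes give the other V genes of the same library. TRBJ1-1 and TRBJ2-3 lie below the dash in all 6 libraries, and TRBJ1-6 of treated tumor 2 stands at 20.9%.

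The middle of the TRBV14 CDR3 was less negatively charged than that of other V genes in every library. The net charge, lysine and arginine minus aspartate and glutamate without the first 4 and last 4 residues, averaged -0.116 ± 0.044 against -0.415 ± 0.037 (SD, n = 6). This middle still holds position 5, which the V gene can encode, and the J residues before the last 4. The part of these germline residues in the difference was not tested. The net charge ran from -0.171 to -0.0602 for TRBV14 and from -0.461 to -0.364 for the other V genes, so the ranges did not overlap. With 8 features tested the adjusted p was 0.0625 (exact sign-flip permutation), and 0 of 8 passed. The smallest p that 6 libraries allow is 0.03125, so no feature can pass on its own, whatever the size of its difference. Phenylalanine at position 5, which the germline encodes, was found in 30.9% ± 6.9 of clonotypes against 2.37% ± 0.51. Without the set it ran from 17.9% in distant tumor 1 to 28.3% in spleen 1. Leucine was the most frequent residue there in treated tumor 1 (28.2%) and distant tumor 1 (34.7%).

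CDR3 length differed little from that of other V genes. The mean was 13.86 ± 0.27 residues against 13.92 ± 0.04 (SD, n = 6; adjusted p = 0.643, exact sign-flip permutation), shorter in 4 libraries and longer in 2. With the set left out it was 13.69 ± 0.18 and shorter in 6 of 6 libraries, with an adjusted p of exactly 0.05 (exact sign-flip permutation), which is not under the threshold. All members of the set have 15 residues, and they were left out of TRBV14 only. Leaving them out could therefore only shorten its mean, so this count does not show that TRBV14 has a shorter CDR3. Clonotypes of 15 residues made up 58.8% of TRBV14 in treated tumor 2 and 38.8% in distant tumor 1, and 32.4% and 21.5% without the set. Those of 12 residues, the length of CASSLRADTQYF, made up 29.5% in distant tumor 1 without the set and between 11.6% and 17.9% in the other libraries.

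**Figure D5:**
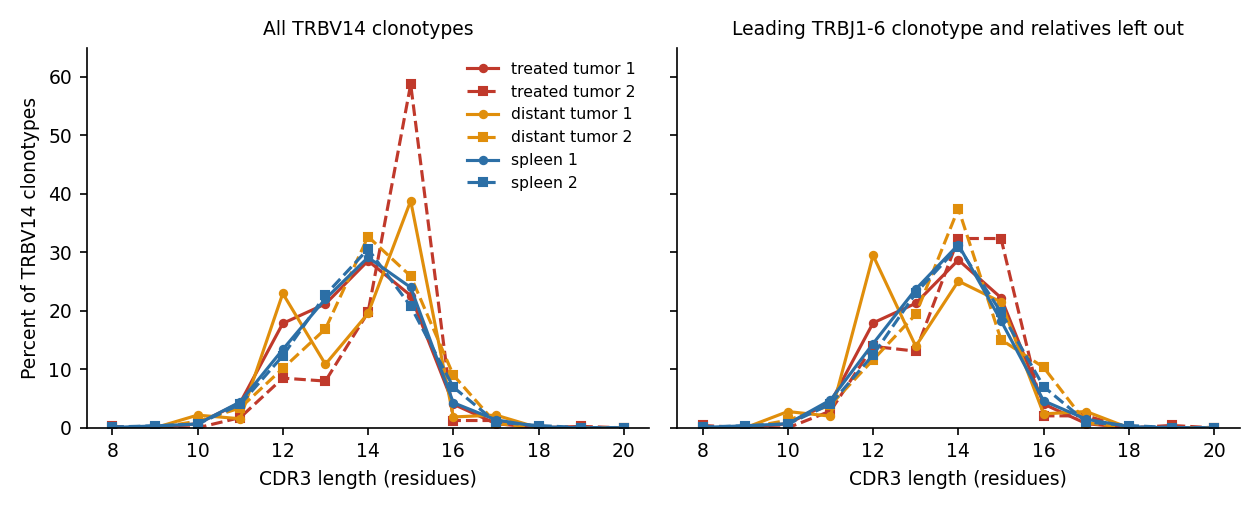
Percentage of TRBV14 clonotypes at each CDR3 length in residues, 1 line per library, for all clonotypes (left) and without the leading TRBJ1-6 clonotype and its relatives (right). The peak at 15 residues in treated tumor 2 falls from 58.8% to 32.4%, and the peak at 12 residues in distant tumor 1 stands at 29.5%.

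Residue motifs that resemble the D segments had lower means beside TRBV14, and the difference did not pass the test. Motifs of the D-beta-2 type (DWG, GLG or LGG) were found in 7.01% ± 3.25 of clonotypes against 10.1% ± 1.48, and of the D-beta-1 type (GQG or DRG) in 3.56% ± 1.75 against 5.51% ± 0.66 (SD, n = 6). Both were lower in 6 of 6 libraries, each with an adjusted p of 0.0625 (exact sign-flip permutation), which did not pass. Here too no feature could pass on its own. With the set left out the D-beta-1 type was lower in 4 of 6 libraries (3.91% against 5.51%, adjusted p = 0.143) and the D-beta-2 type in 6 of 6 (7.82% against 10.1%, adjusted p of exactly 0.05). With clonotypes of 1 read left out the D-beta-2 type was lower in 4 of 6 (adjusted p = 0.417, exact sign-flip permutation). The differences were narrow in some libraries, with 10.5% against 10.7% for the D-beta-2 type in spleen 2. A cysteine inside CDR3 was found in 6.32% ± 3.27 against 9.29% ± 0.65 (adjusted p = 0.167), with 12.2% in treated tumor 2 and 3.12% in spleen 1.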

How the data were processed

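Receptor β-chain cDNA was amplified by adaptor-ligation PCR and sequenced on a MiSeq with 2 × 300 bp reads, per the labels' protocols. The sources used here do not name the aligner, the annotation program or the genome build; these are not given. For each library the authors deposited 1 row per V gene, J gene and CDR3, with the raw read count and a percent of productive reads rounded to 2 decimals. The percentages were recomputed from the counts and differed by at most 0.00499. Rows whose CDR3 held a stop or frame mark were left out. Members and lists were chosen with earlier results of these data known.

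Reads per V gene or V-J pair were scaled by library totals and fitted over all 6 libraries as 3 groups with edgeR 4.0.16 (quasi-likelihood, filterByExpr, Benjamini-Hochberg adjustment), with DESeq2 1.42.0 as an alternative. V-J pair tests were also run on simulated counts. Their spread was fixed for all pairs and not taken from these libraries, so they do not show how the tests perform here. J partners and CDR3 features were compared with the other V genes by an exact sign-flip permutation. Single tumors were compared by Fisher's exact test in scipy 1.17.1, for clonotypes of at least 10 reads in both libraries together. Equal-depth values are means of 100 seeded draws of 760 reads. Single-library shares carry 95% Wilson intervals and a floor of 3 reads. Named clonotypes were the 5 most abundant TRBV14 clonotypes of each library, of the tumors of both numbers, of both spleens and of all 3 tissues of a number; V genes named as alike were the 3 with the highest correlation. Nothing states that libraries of a group are separate animals beyond the number of mice. The p-values of tests over several libraries therefore measure the spread between these libraries. Those of Fisher's exact test compare 1 library with another and cover counting error only. Gene positions are from GENCODE M21 (GRCm38), which matched all 35 symbols.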

Additional observations from a re-analysis of the deposited data

Results flagged for a closer look

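The leading TRBV14/TRBJ1-6 clonotype differed between treated and distant tumor in opposite directions in the 2 title numbers, with a log2 ratio of -6.02 in number 1 and 4.26 in number 2. With 1 library on each side, this difference between the numbers was not tested.

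TRBV14 rows with a stop or frame mark in CDR3, which no comparison above uses, held reads in every library. They made up 6.43% and 4.02% of TRBV14 reads in treated tumors 1 and 2, 7.15% and 3.55% in distant tumors 1 and 2, and 6.47% and 8.31% in spleens 1 and 2. Over the other V genes the shares were 5.22%, 4.46%, 4.41%, 4.86%, 6.32% and 6.58% in the same order, so TRBV14 was above the other V genes in 4 libraries and below them in treated tumor 2 and distant tumor 2.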

How the results depend on the processing

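The TRBV14 share of treated against distant tumors and of treated tumors against spleens stayed positive under every setting run. Its log2 fold change passed the threshold in added counts only. With each clonotype counted once and the TRBJ1-6 set left out it was 0.55 and 0.58, and both calls were lost with TMM factors, DESeq2 or the block. With clonotypes of 2 or more reads counted once it was 1.15 against spleens, and 0.93 with the set also left out. Neither of these was run with TMM factors, DESeq2, the block or a library left out. In those 2 counts all tumors against spleens also passed, at 0.91 and 0.75 (33.3% and 19% of V genes called), where 0.13 was the value from reads. Distant tumors against spleens changed sign from -0.14 to 0.0174 with TMM factors, 0.259 with DESeq2, 0.243 with clonotypes counted once, 0.525 without the 10 most abundant clonotypes, 0.0299 once without the set, 0.00439 once without TRBV14/TRBJ1-6, and 0.662 and 0.574 with clonotypes of 2 or more reads counted once, with and without the set; the cause was not tested. DESeq2 called 1 TRBV14 V-J pair between treated and distant tumors. Fisher counts with at least 50 reads were 8 and 3 (number 1) and 7 and 1 (number 2) higher in treated and distant tumors, since fewer clonotypes were tested (over all V genes 64% and 29.1%, and 69.8% and 22.9%, were called), and 29 higher in distant tumor 2 with at least 5 reads. With the replicate block the log2 fold changes were 0.54, 0.40, -0.14 and 0.13, and no call from reads changed. Same-numbered libraries had correlations of 0.539, 0.129 and 0.0759 in their deviations over 21 V genes. The labels do not state a shared animal and the last value is under 0.1. Clonotype sharing between tumors followed the number for other V genes, and for TRBV14 with the TRBJ1-6 set left out. With the set kept, treated tumor 2 and distant tumor 1 shared 18 TRBV14 clonotypes, against 13 between the tumors of each number. Whether same-numbered libraries share an animal was not tested. Leaving out each library gave 0.409 to 0.680 (treated against distant), 0.275 to 0.511 (treated against spleen), -0.283 to -0.0118 (distant against spleen) and 0.0575 to 0.193 (tumors against spleens). Without each library the length difference was -0.149 to -0.00120 residues, the top 10 difference 30.1 to 38.3 percentage points and the distinct clonotype difference -441.0 to -407, with 0 calls for V-J pairs. J partners and features cannot pass with 5 libraries, where the smallest p is 0.0625. With single reads left out, the top 10 comparison had p = 0.133 (exact permutation). Depth limits single clonotypes, as 760 TRBV14 reads were found in distant tumor 2.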
